A study of Mus musculus with 14 samples.

Results

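The clustered protocadherins are 57 protein-coding genes on mouse chromosome 18 whose symbols start with Pcdha, Pcdhb or Pcdhg in GENCODE M21. They were chosen by symbol and place alone, out of 21938 protein-coding genes on the chromosomes. The alpha cluster held 14 of them, the beta cluster 22 and the gamma cluster 21. Pcdhgb8 is annotated as a polymorphic pseudogene in this release and was therefore no member. A pair of gene identifiers carries the symbol Pcdha11, and the one with its transcription start site (TSS) at position 37005203 is called Pcdha10 by RefSeq and in what follows.

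H3K4me1, the monomethylation of lysine 4 of histone H3, was mapped by ChIP-seq in the cell clone NG3. NG3 is a single clone of immortalized mouse embryo fibroblasts (iMEF) with floxed Ash2l alleles and a CAGG-driven Cre-ER recombinase. In every group, the control included, exon 4 of the endogenous Ash2l had been deleted and the cells lived on the fusion protein FKBP-HA2-ASH2L, which the compound dTAG-13 marks for degradation. The groups were a control without dTAG-13 and cells treated for 30 min, 2 h, 4 h, 8 h or 16 h, with 2 libraries each (12 in all), and 2 input libraries, from control cells and from cells with 16 h of dTAG-13. ASH2L is a core subunit of the KMT2 complexes, which methylate H3K4.

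The values analysed here were the positions of 160144 H3K4me1 sites, called by the authors over all samples and given as a single set. No height, read count or time point belongs to a site, so neither a replicate error nor a change with dTAG-13 could be computed, and a gene without a site is one where the pooled set holds none. The set gives no depth per library, and the minimum number of raw reads per sample that the methods name was not used here. All values below are complete counts and positions, given without a test. A site within 1 kb of the most upstream TSS was called a site at the promoter. Markers did not separate cell types by this measure: 9 of 10 fibroblast markers (all but Col3a1, a fibrillar collagen) and 9 of 10 neuron markers (all but Rbfox3, the neuronal nuclear antigen NeuN) had a site at the promoter.

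Clustered protocadherins are cell adhesion proteins of the cadherin superfamily and are best known from neurons, where the set of isoforms that a cell displays allows its own branches to recognise and avoid each other. Each variable exon of the clusters has a promoter of its own, encodes the extracellular cadherin domains, the transmembrane segment and the start of the cytoplasmic tail, and is chosen largely at random. In alpha and gamma, the chosen variable exon is spliced to constant exons shared by all genes of the cluster, which encode a common cytoplasmic end. Beta genes have no constant exons. The C-type genes at the 3′ ends of alpha (Pcdhac1 and Pcdhac2) and gamma (Pcdhgc3, Pcdhgc4 and Pcdhgc5) are chosen less randomly. CTCF and cohesin bind at many of the variable promoters and join them to distant enhancers. H3K4me1 is found at enhancers and on both sides of active promoters.

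H3K4me1 sites were scarcer in the cluster as a whole than in its flanks. In alpha and gamma most of them lay towards the 3′ end. The members spanned chr18:36930184-37841873 (mm10), a stretch of 911.69 kb with 28 sites. This came to 30.7 sites per Mb, with 3.24% of the bases under a site. The flank of 200 kb before the first TSS had 10 sites (50.0 per Mb, 5.82% covered) and the flank after the last exon had 25 (125 per Mb, 17.3% covered). The density in the cluster was 0.351 times that of both flanks together (exact 95% interval 0.206 to 0.594, for the counting of sites only, as if sites were independent). All of chromosome 18 had 67.6 sites per Mb and the autosomes 65.8, with 5.78% and 6.16% of their sequenced bases covered.

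**Figure D1:**
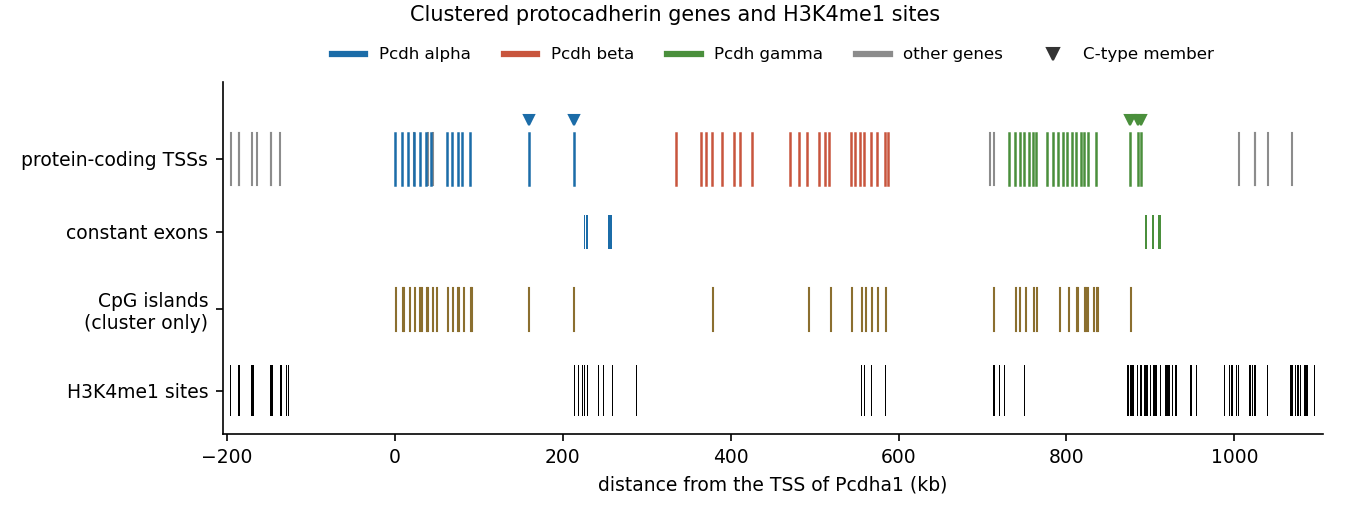
Map of the clustered protocadherin genes with 200 kb on either side, by distance from the TSS of Pcdha1 in kb. Rows show the TSSs of protein-coding genes (triangles mark C-type members), constant exons, CpG islands inside the cluster and H3K4me1 sites, with narrow features drawn wider than to scale so that they can be seen. Sites are crowded near the 3′ end of gamma and in the downstream flank, and none lies in the long stretch with the TSSs of Pcdha1 to Pcdhac1.

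The clusters differed in density and in where their sites lay. The alpha cluster (257.478 kb) had 7 sites, or 27.2 per Mb, on 2.33% of its bases. The beta cluster (259.542 kb) was sparsest, with 4 sites, 15.4 per Mb and 0.553% covered. The gamma cluster (180.081 kb) had 12 sites, 66.6 per Mb, and 10.2% covered. In density it was close to chromosome 18 (67.6 per Mb), and in coverage above it (5.78%). The gamma count fell to 7 when sites within 1 kb were merged and also when sites under 500 bp were left out. Within alpha and gamma the sites were uneven. The 92.44 kb with the first 12 alpha variable exons had 0 sites, and all 7 alpha sites lay in or at the 44.159 kb from the TSS of Pcdhac2 to the end of the cluster, where 13.0% of the bases were covered. The 106.748 kb with the gamma A and B variable exons had 1 site (0.876% covered), while the 35.51 kb from the TSS of Pcdhgc3 to the end had 9 sites, or 253 per Mb, on 43.7% of the bases.

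Long stretches without a site held most of the TSSs. The longest, 339.663 kb, ran from upstream of Pcdha1 to Pcdhac2 and contained the TSSs of 13 of the 14 alpha genes. The next, 266.67 kb, contained those of 17 beta genes, from Pcdhb1 to Pcdhb17. Pcdhb17 nevertheless had a site at its promoter, which started 257 bp after its TSS and ended the stretch. A stretch of 128.68 kb between beta and gamma contained Pcdhb22, and one of 121.773 kb contained 14 gamma genes, from Pcdhga4 to Pcdhga12. For comparison, the median of the 157529 intervals between neighbouring sites on autosomes was 3314 bp, and 562 of them (0.357%) were at least as long as the alpha stretch. The corresponding figure was 769 (0.488%) for the beta stretch and 2118 (1.34%) for the gamma stretch. These percentages count each interval once, whatever its length. They are not shares of bases, of which long intervals hold more, and the stretches were picked for their length.

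A site was present at the promoter of 9 of the 57 members (15.8%). Among all protein-coding promoters the share was 63.9 percent. Alpha had 1 of 14 (7.14%), beta 4 of 22 (18.2%) and gamma 4 of 21 (19.05%), and the Wilson 95% intervals overlapped widely, from 1.27 to 31.5% in alpha and from 7.31 to 38.5% in beta, with that of gamma close to that of beta. These intervals treat neighbouring promoters as independent, and the counts do not tell the clusters apart. The members with a site were Pcdhac2 in alpha, Pcdhb17, Pcdhb18, Pcdhb19 and Pcdhb21 in beta, and Pcdhgb1, Pcdhgc3, Pcdhgc4 and Pcdhgc5 in gamma. Of the C-type genes, 4 of 5 had a site, all but Pcdhac1, against 5 of the 52 other members, of which 0 of 12 were in alpha, 4 of 22 in beta and 1 of 18 in gamma. A site covered the TSS itself in 5 members (Pcdhac2, Pcdhb21, Pcdhgb1, Pcdhgc3 and Pcdhgc5), and in 39.5 percent of all protein-coding genes. Within 10 kb of the TSS a site was found for 16 members (1 in alpha, 7 in beta and 8 in gamma), where the share of all protein-coding genes was 76.3 percent. The member just inside the promoter window was Pcdhgc4, 375 bp from its site, and the one just outside was Pcdhb22, 3818 bp from the nearest, so that no member lay near the limit of 1 kb. The others within 10 kb but without a site at the promoter were Pcdhb20 (6703 bp) and Pcdhb16 (7238 bp) in beta and Pcdhga4 (4074 bp), Pcdhga1 (5758 bp), Pcdhga3 (5895 bp) and Pcdhgb2 (8692 bp) in gamma.

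**Figure D2:**
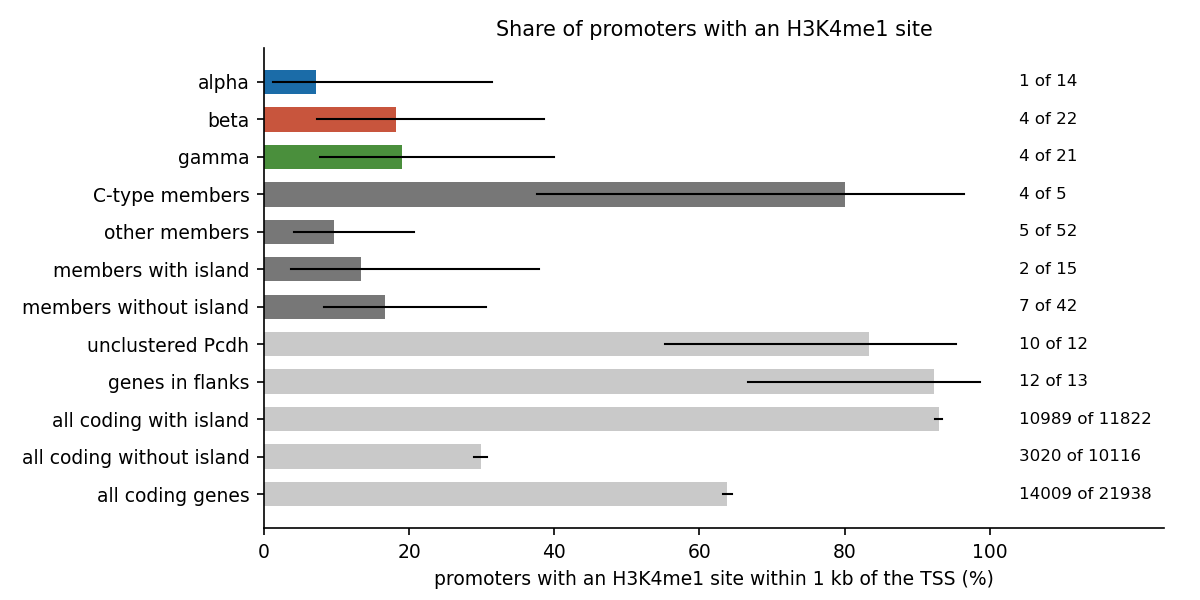
Share of promoters with an H3K4me1 site within 1 kb of the TSS (%), with the number of genes beside each bar. Lines are Wilson 95% intervals, for counting only. The alpha, beta and gamma bars lie between 7.14% and 19.05%, under the bars of unclustered protocadherins, flanking genes and all coding genes, and the bar of members with a CpG island (13.3%) lies near that of members without one (16.7%).

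The alpha promoter with a site was that of Pcdhac2, the last variable exon of the cluster. Its site, chr18:37143232-37145016, was 1785 bp wide and reached from 271 bp upstream to 1513 bp downstream of the TSS, over 50% of the variable exon. Pcdhac1, the other alpha C-type gene, was the nearest of the alpha genes without a site, and yet its TSS was 53219 bp from one. The 12 remaining alpha TSSs were between 123083 bp and 169430 bp from a site, with Pcdha7 the farthest. The median over the 14 alpha genes was 140283 bp, against 103 bp over all protein-coding genes. Because the annotated alpha genes all run to the shared constant exons, all 14 alpha gene bodies contained the same 7 sites, and a gene body count does not tell the alpha genes apart.

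Beta genes consist of a single coding exon, and all 4 sites of the beta cluster lay at promoters. At Pcdhb17 the site was 316 bp wide and started 257 bp after the TSS. At Pcdhb18 it was 213 bp wide and started 146 bp after the TSS. At Pcdhb19 it was 471 bp wide and started 100 bp after the TSS, and at Pcdhb21 it was 436 bp wide and started 3 bp before it. All 4 were thus narrow, under the autosomal median of 606 bp, and all 4 covered the start codon. Restricted to sites with a width of 500 bp or more, 0 of 22 beta promoters had a site, while the share of all protein-coding promoters was 59.6%. Pcdhb17, Pcdhb18 and Pcdhb19 follow each other along the chromosome. Pcdhb20, between Pcdhb19 and Pcdhb21, had no site within 6703 bp. Of the beta genes without a site, Pcdhb22 was the nearest to one (3818 bp) and Pcdhb8 the farthest (129931 bp), and the median over all 22 was 47994 bp.

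In gamma, 3 of the 4 promoters with a site were those of the C-type genes. Pcdhgb1 was the only one of the 18 A and B genes with a site, chr18:37680202-37681136, which was 935 bp wide and ran from 31 bp upstream to 903 bp downstream of the TSS. Of those without a site, Pcdhga4 was nearest (4074 bp) and Pcdhgb6 farthest (60816 bp). At Pcdhgc3 the site, chr18:37805969-37809564, was 3596 bp wide, reached from 395 bp upstream to 3200 bp downstream of the TSS and covered 100% of the variable exon of 2568 bp. At Pcdhgc5 a site of 1713 bp ran from 857 bp upstream to 855 bp downstream of the TSS. Pcdhgc4, between them, had a site of 343 bp that ended 375 bp upstream of the TSS and left the TSS uncovered. The median distance from TSS to site over the 21 gamma genes was 25903 bp. A site covered the start codon of 8 of the 57 members and of 39.6 percent of all protein-coding genes with an annotated start codon. These 8 were the members with a site at the promoter except Pcdhgc4. A site covered the start codon in 59.9 percent of all protein-coding genes that had a site at the promoter. In members the start codon lay at most 610 bp after the TSS (Pcdhb22). The shares over all genes set no limit on this distance, so they are not matched for it.

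**Figure D3:**
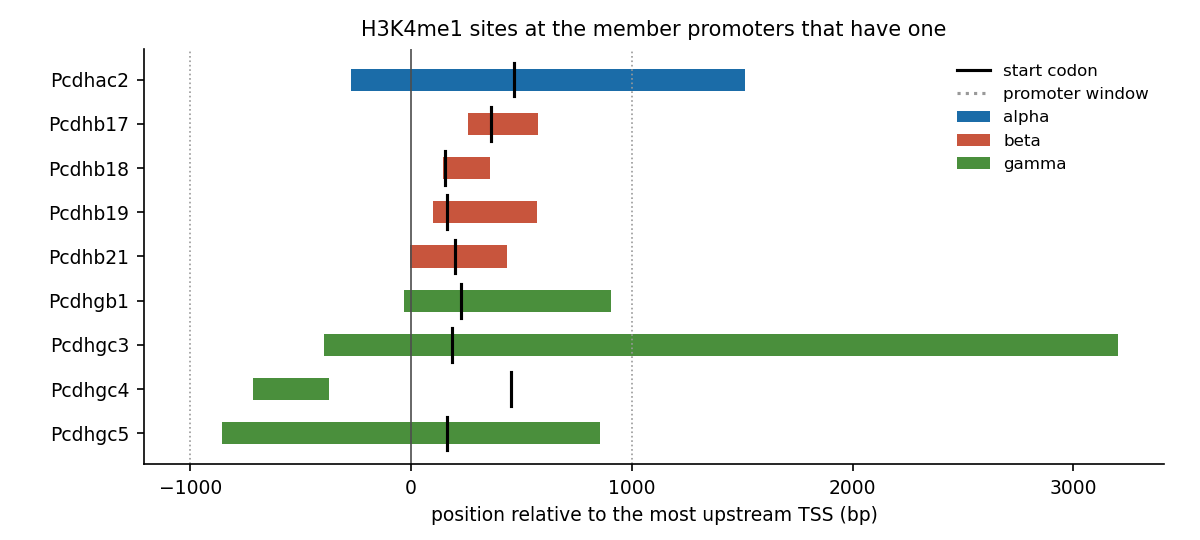
H3K4me1 sites (bars) at the 9 member promoters that had one, by position in bp from the most upstream TSS, coloured by cluster, with the start codon as a black line and the promoter window of 1 kb on either side dotted. The 4 beta sites are narrow, between 213 and 471 bp, and the site at Pcdhgc3 is widest with 3596 bp.

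**Figure D4:**
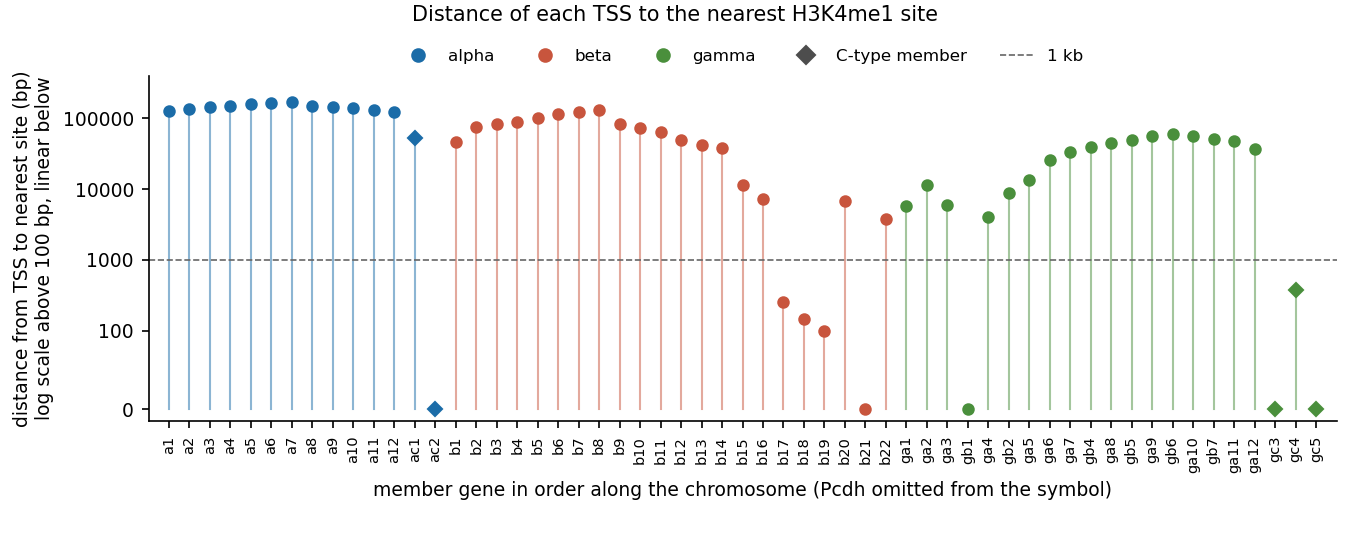
Distance in bp from the TSS of each of the 57 members to the nearest H3K4me1 site, in order along the chromosome, with diamonds for C-type members (log scale above 100 bp, linear below). The alpha genes up to Pcdha12 are all at least 123083 bp from a site, and 9 members lie under the dashed line at 1 kb.

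The constant exons, which encode the common tail of all alpha or all gamma proteins, lay among sites in both clusters. Of the 3 alpha constant exons, the second (chr18:37159265-37159353) was fully under a site of 881 bp. The first was 740 bp from the nearest site, and the third, which ends the transcripts, was 1008 bp from it. Of the 3 gamma constant exons, the first (chr18:37825021-37825079) was under a site of 5100 bp, the widest of the whole cluster. The second was 416 bp from a site of 3795 bp, and the third was 117 bp from a site of 1394 bp that lay just past the cluster. By the count of exons overlapped, alpha and gamma were the same, with 1 of 3 each. By the count within 1 kb, 2 of 3 alpha and 3 of 3 gamma constant exons had a site. Shares over all exons under these rules were not computed, so the counts do not set constant exons apart from their surroundings. From the TSS of Pcdhac2 to the end of alpha, 13.0% of all bases were under a site. From the TSS of Pcdhgc3 to the end of gamma it was 43.7%. The 5 widest sites of the cluster were that of 5100 bp over the first gamma constant exon and that of 3795 bp near the second, without overlap. The others were of 3596 bp at Pcdhgc3, of 1785 bp at Pcdhac2 and of 1713 bp at Pcdhgc5. The site of 5100 bp was also within 1 kb of the TSS of the annotated gene Gm38182, and that of 3596 bp within 1 kb of the TSS of BC037039.

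**Figure D5:**
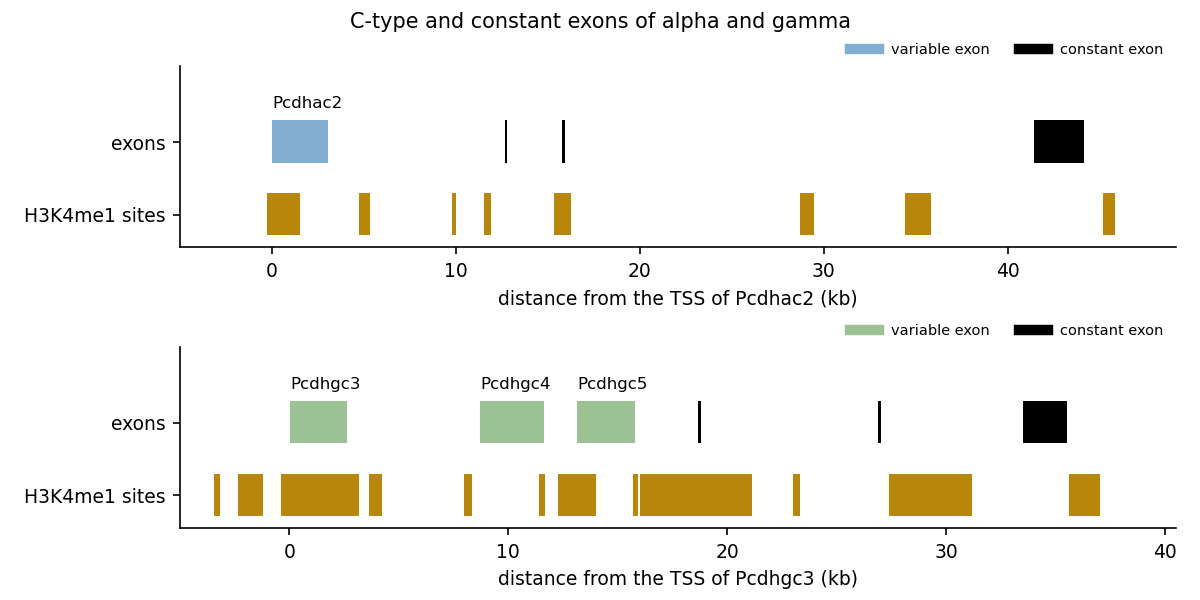
H3K4me1 sites at the 3′ ends of the alpha cluster (top, distance in kb from the TSS of Pcdhac2) and of the gamma cluster (bottom, distance in kb from the TSS of Pcdhgc3), with variable exons in colour and constant exons in black. The short first and second constant exons are drawn wider than to scale. Sites cover 13.0% of the alpha part and 43.7% of the gamma part from the TSS named to the last exon.

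Of the remaining sites inside alpha, 3 lay between Pcdhac2 and the first constant exon (608 bp, 226 bp and 386 bp wide) and 2 between the second and the third (725 bp and 1397 bp wide). The site of 725 bp was also within 1 kb of the TSS of the annotated gene Gm38097, and that of 1397 bp within 1 kb of the TSS of Gm10544. Between alpha and beta, 2 sites were called, the first 1008 bp and the second 30.274 kb after the last alpha base. Enhancers of the alpha genes are known in the intron between constant exons and downstream of the cluster, but no enhancer positions were used here, and these sites were not matched to them. Between beta and gamma, 3 sites were called. One of 1797 bp lay at the promoter of Taf7, a subunit of the general transcription factor TFIID whose gene sits inside the cluster. Another, of 487 bp, was within 1 kb of the TSS of the annotated gene 3222401L13Rik. Inside gamma, a site of 307 bp was within 1 kb of the TSS of Gm29994.

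CpG islands were dense in the cluster, and most of them had no site. Of the 57 promoters, 15 had an island within 1 kb (7 alpha, 0 beta and 8 gamma), and in all protein-coding genes 53.9 percent had one. Of these 15 promoters 2 had a site, Pcdhac2 and Pcdhgc3 (13.3%), whereas 93 percent of all protein-coding promoters with an island had one. Of the 42 promoters without an island 7 had a site (16.7%), where 29.9 percent of all such promoters did. The same held for the islands themselves. The cluster held 46, of which 43 lay in a variable exon, and 35 of the 57 variable exons contained at least 1 (all 14 in alpha, 9 of 22 in beta and 12 of 21 in gamma). A site overlapped 3 of the 46, in Pcdhac2, in Pcdhgc3 and at Taf7, and 78 percent of the islands on autosomes. The density of islands in the cluster, 50.5 per Mb, was far above the 6.55 per Mb of the autosomes, while the density of sites was lower. Most islands were short, with a median length of 455 bp, and those with a site at the promoters of Pcdhac2 and Pcdhgc3 were the longest at any member promoter (978 bp and 1486 bp). With islands of at least 500 bp alone, 2 promoters in alpha, 0 in beta and 2 in gamma had one, beside 36.2% of all protein-coding promoters. Among these, Pcdhac2 and Pcdhgc3 had a site, and Pcdhac1 (543 bp) and Pcdhga12 (699 bp) had none. Of the 11822 protein-coding promoters with an island, 7940 had one of at least 500 bp. The share of these 7940 with a site was not computed. The 13.3% and 93 percent above are thus not matched for island length.

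The promoters of beta genes were poorer in CpG than those of the other clusters. The ratio of observed to expected CpG in the window of 1 kb on either side ranged from 0.138 to 0.475 in beta. In alpha it ranged from 0.520 to 0.702 and in gamma from 0.251 to 0.820. The beta promoters with a site had ratios of 0.383 (Pcdhb17), 0.316 (Pcdhb18), 0.327 (Pcdhb19) and 0.201 (Pcdhb21), within the range of the other beta promoters.

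Genes of one cluster resemble each other in sequence, so the share of a promoter that reads could be placed on was measured. Of all words of 75 bases (the cycles of the sequencing cartridge) in the promoter windows, between 86.6% (Pcdha7) and 100% occurred once in the reference, with a median of 94.6% in alpha and 100% in both beta and gamma. At all 9 members with a site the share was 100%. Over the 48 members without a site the median was 99.0%. Many of them, Pcdhac1 and genes of both beta and gamma included, also had 100%. In the long stretches without a site, the share was 86.4% in the alpha stretch of 339.663 kb, 90.6% in the beta stretch of 266.67 kb, 77.9% in the stretch of 128.68 kb with Pcdhb22 and 97.8% in the gamma stretch of 121.773 kb. For comparison, it was 92.9% in the upstream flank, 99.6% in the downstream flank and 90.1% in the whole cluster. The share was thus lower in alpha than at the members with a site. The part of this in the absence of sites was not tested.

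Genes related to the members, and genes around the cluster, were counted in the same way, to be read beside the 63.9 percent of all protein-coding promoters and the 93 percent of those with an island. Of 12 unclustered protocadherins, which have the same kind of extracellular domains, 10 had a site at the promoter and 9 an island, among those with a site Pcdh1, Pcdh7, Pcdh9 and Pcdh10. Pcdh8 (109668 bp to the nearest site) and Pcdh12 (3754 bp) had none. Of 13 genes for factors known to act on the clusters 12 had a site and 12 an island, among those with a site Ctcf and the cohesin genes Rad21, Smc1a and Smc3, and Stag1, another cohesin subunit, had no site. All 8 genes for cytoplasmic partners of the clustered protocadherins, such as the kinase genes Ptk2 and Ptk2b and the WAVE complex genes Wasf1 and Cyfip1, had a site, and 7 an island. Of the 13 protein-coding genes in the flanks 12 had a site, all but Dnd1, an RNA-binding protein of germ cells, and 12 had an island. The nearest on either side were Zmat2 upstream and Diaph1, a formin that nucleates actin filaments, downstream, and each had a site within 1 kb. Of the 5 other protein-coding genes annotated inside the cluster, Taf7 had a site, and Slc25a2, a mitochondrial ornithine carrier, and the predicted genes Gm42416, Gm37013 and Gm37388 had none. The TSSs of these predicted genes lay inside the variable exons of Pcdha4, Pcdha6 and Pcdha7, so they are not separate from the alpha result.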

How the data were processed

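H3K4me1 ChIP-seq was done in NG3 cells. According to the methods and labels, reads were trimmed with Trim Galore, aligned to mm10 with BWA and filtered with samtools, replicates were merged with Picard, and broad peaks were called with Macs (versions, thresholds and the way peaks were joined over samples: not given in the sources used here). The deposited values are other than a measured quantity: the authors gave the start and end of each site, from 0 and with no value per library. Positions were converted to count from 1. The narrowest site had 200 bp. Depth per library is not in the set. The methods name a minimum number of raw reads per sample, not used here, and say that ChIP-seq samples were scaled to the lowest coverage. No per-sample column was left out.

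The members (by symbol and place) and the lists were set with earlier results of these data known, although no measured value entered the rule for members. Every member is accounted for. Named with values are the members with a site, the C-type members, the nearest and the farthest member without a site in each cluster, the neighbours and the 5 widest sites. Members named for their islands or place were chosen after their values were seen.

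Genes came from GENCODE M21 and bases from GRCm38.p6. Release M25, named by the study, was not used here. A promoter was 1 kb on either side of the most upstream TSS, and an overlap of 1 bp counted. A variable exon was the coding exon with the start codon in transcripts with a CCDS entry, and a constant exon was shared by at least 2 genes. Sites were counted in a region by their centre. CpG islands were called on repeat-masked sequence (17 per CpG and -1 per other base, over 200 bp, GC of at least 50%, observed to expected CpG over 0.6), giving 16196. Python 3.11.15, numpy 2.4.6, scipy 1.17.1, numba 0.67.0 and matplotlib 3.10.9 were used. On simulated data, overlap, coverage and distance equalled a direct count in 400 of 400 windows, and 49 of 50 planted islands were found with both ends in place. Windows, the TSS used, site width, merging, flank size and island length were varied.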

Additional observations from a re-analysis of the deposited data

How the results depend on the processing

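Of 39 alternatives to the counts and ratios above, 31 stayed within 1.5 times the value given or, for the ratio of densities, inside its interval. Promoter windows of 500 bp or 2 kb, the start codon, any annotated TSS, the RefSeq TSS and an overlap of at least 200 bp left the number of promoters with a site at 1 in alpha, 4 in beta and 4 in gamma. Under these rules the share of all protein-coding promoters ranged from 54.2% (start codon) to 67.8% (any annotated TSS). With sites of at least 500 bp, 0 beta and 3 gamma promoters had a site, beside 59.6% of all protein-coding promoters. The sites in the beta cluster then fell from 4 to 0 and in the gamma cluster from 12 to 7. All beta sites were narrower than that. Merging sites within 1 kb also gave 7 in gamma. Counting sites within 1 kb of a constant exon gave 2 exons in alpha and 3 in gamma. Islands of at least 500 bp were at 2 promoters in alpha and 2 in gamma, and at 36.2% of all protein-coding promoters. The density in the cluster relative to the flanks ranged from 0.212 to 0.409. No paired analysis was possible because the deposited set holds no value per library, and for the same reason no replicate could be left out. Since the set was pooled over control and treated cells, a site may come from any of the groups.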
